A study of Mus musculus with 6 samples.

Results

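The expression of 10 genes of the NRF2 antioxidant and glutathione system was examined in pools of the 4T1 line, which derives from a mouse mammary tumour. The genes were taken by symbol from a list made with earlier results of these data known, and 10 of 10 were found among the 11452 genes of the deposited table. The list held Nfe2l2, Keap1, Gclc, Gclm, Gsr, Txnrd1, Srxn1, Nqo1, Hmox1 and G6pdx. The pools were knockout (KO) or wild type (WT) for Myo1e, the gene of a class I myosin motor, with 3 RNA-seq libraries per genotype and no treatment named in the labels. Not given in the sources used here are how the knockout was made and how many clones a pool held.

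NRF2, the product of Nfe2l2, is a transcription factor that pairs with small MAF proteins on antioxidant response elements in DNA. KEAP1 holds it in the cytoplasm and presents it to a CUL3 ubiquitin ligase for degradation, until oxidants or electrophiles modify KEAP1 and NRF2 accumulates. Its targets make and recycle glutathione, regenerate thioredoxin and peroxiredoxins, supply NADPH and detoxify quinones and heme, and in tumour cells the pathway is known for protection against oxidants and drugs.

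Each genotype has columns with the numbers 1, 2 and 4, while the sample titles run from pool 1 to pool 3, and no source used here says what number 4 stands for. Libraries are named by genotype and number, as KO 4 or WT 4. The values are log2 CPM, the log2 of library-scaled read counts. Whole reads could be recovered from them, 17772003 to 19988206 per library. The largest source of variance was the column number, since the first principal component held 83.8% of it and separated KO 4 and WT 4 from the other 4 libraries. Mitochondrially encoded genes held 0.343% and 0.309% of reads in KO 4 and WT 4, against 0.379% to 0.493% in the libraries numbered 1 and 2; their part in the results was not tested. The targeted gene was still transcribed, with Myo1e, in log2 CPM, at 6.81 in KO 4 and 6.87 and 6.81 in KO 1 and KO 2, against 6.91 in WT 4 and 7.09 and 7.02 in WT 1 and WT 2. It was lower in KO in 3 of 3 numbers, but the difference of -0.18 (SE 0.09) did not pass (adjusted p = 0.9999, and 0.32 with the column number as a block), so the labels could not be checked from its level. Of the epithelial markers 4 of 4 were measured (Epcam, Krt8, Krt18 and Cdh1, at 7.66 to 10.45 log2 CPM), whereas 0 of 5 fibroblast, 0 of 4 leukocyte and 0 of 3 endothelial markers were among the genes of the table.

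The start-site regions of the members were examined first for the letters that NRF2 and its partners are known to bind. RefSeq windows of 300 bases on GRCm38.p6, from 250 before to 50 after a start site, were at hand for 7 of the 10 members, with 9 windows in all since Txnrd1 has 3. No window was used for Hmox1, Gclc and Gsr. The motifs searched on both strands were TGACNNNGC and TGAGNNNGC, forms of the antioxidant response element core. The second can overlap the AP-1 element TGAGTCA. Of the 9 windows 5 held a match, for Nfe2l2, Gclm, Txnrd1, Srxn1 and G6pdx, and 27.8% of all 32851 RefSeq windows of this length held one. A match describes letters and is not evidence of binding. The windows of Keap1 and Nqo1, and windows 1 and 3 of Txnrd1, hold no such letters within these 300 bases.

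The 4 windows below were chosen among those with a match and show the gene of the factor itself and 3 of its target genes. The Txnrd1 window with a match and the windows without one are not shown. Matched letters are in capitals, 5′ to 3′ on the strand of the gene. Their coordinates are chr2:75704614-75704913 on the minus strand for Nfe2l2, chr2:152105274-152105573 on the plus strand for Srxn1, chr3:122245307-122245606 on the plus strand for Gclm and chrX:74428831-74429130 on the minus strand for G6pdx.
Nfe2l2: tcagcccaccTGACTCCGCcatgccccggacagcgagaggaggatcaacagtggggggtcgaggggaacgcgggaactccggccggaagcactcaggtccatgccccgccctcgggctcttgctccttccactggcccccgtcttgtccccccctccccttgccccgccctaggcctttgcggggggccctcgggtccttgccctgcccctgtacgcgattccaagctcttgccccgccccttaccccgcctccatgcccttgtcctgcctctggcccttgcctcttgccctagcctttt
Srxn1: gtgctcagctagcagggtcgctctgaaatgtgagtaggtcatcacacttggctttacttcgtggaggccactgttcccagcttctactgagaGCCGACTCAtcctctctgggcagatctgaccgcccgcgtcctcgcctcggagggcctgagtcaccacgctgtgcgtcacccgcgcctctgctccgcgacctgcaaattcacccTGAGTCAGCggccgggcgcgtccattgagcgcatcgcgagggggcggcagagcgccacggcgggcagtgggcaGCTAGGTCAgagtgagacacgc
Gclm: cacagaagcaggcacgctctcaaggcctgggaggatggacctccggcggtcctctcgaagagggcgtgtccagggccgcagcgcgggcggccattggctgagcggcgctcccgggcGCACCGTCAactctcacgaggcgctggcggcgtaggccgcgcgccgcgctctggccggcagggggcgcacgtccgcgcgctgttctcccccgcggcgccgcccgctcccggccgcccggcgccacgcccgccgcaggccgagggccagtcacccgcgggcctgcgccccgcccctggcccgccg
G6pdx: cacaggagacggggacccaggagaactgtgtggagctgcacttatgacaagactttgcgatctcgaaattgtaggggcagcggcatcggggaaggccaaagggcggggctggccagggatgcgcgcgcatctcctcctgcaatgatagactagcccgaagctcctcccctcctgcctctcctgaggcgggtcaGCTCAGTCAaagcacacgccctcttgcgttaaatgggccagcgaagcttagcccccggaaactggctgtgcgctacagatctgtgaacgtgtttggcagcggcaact
Srxn1 had 3 matches, the most of the 9 windows, centred 154 and 41 bases before and 32 bases after its start site. The match at 41 bases before the start, TGAGTCAGC, contains the AP-1 element, which also occurs a second time in that window. The single match lay 236 bases before the start in Nfe2l2, 130 before it in Gclm and 53 before it in G6pdx.

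**Figure D1:**
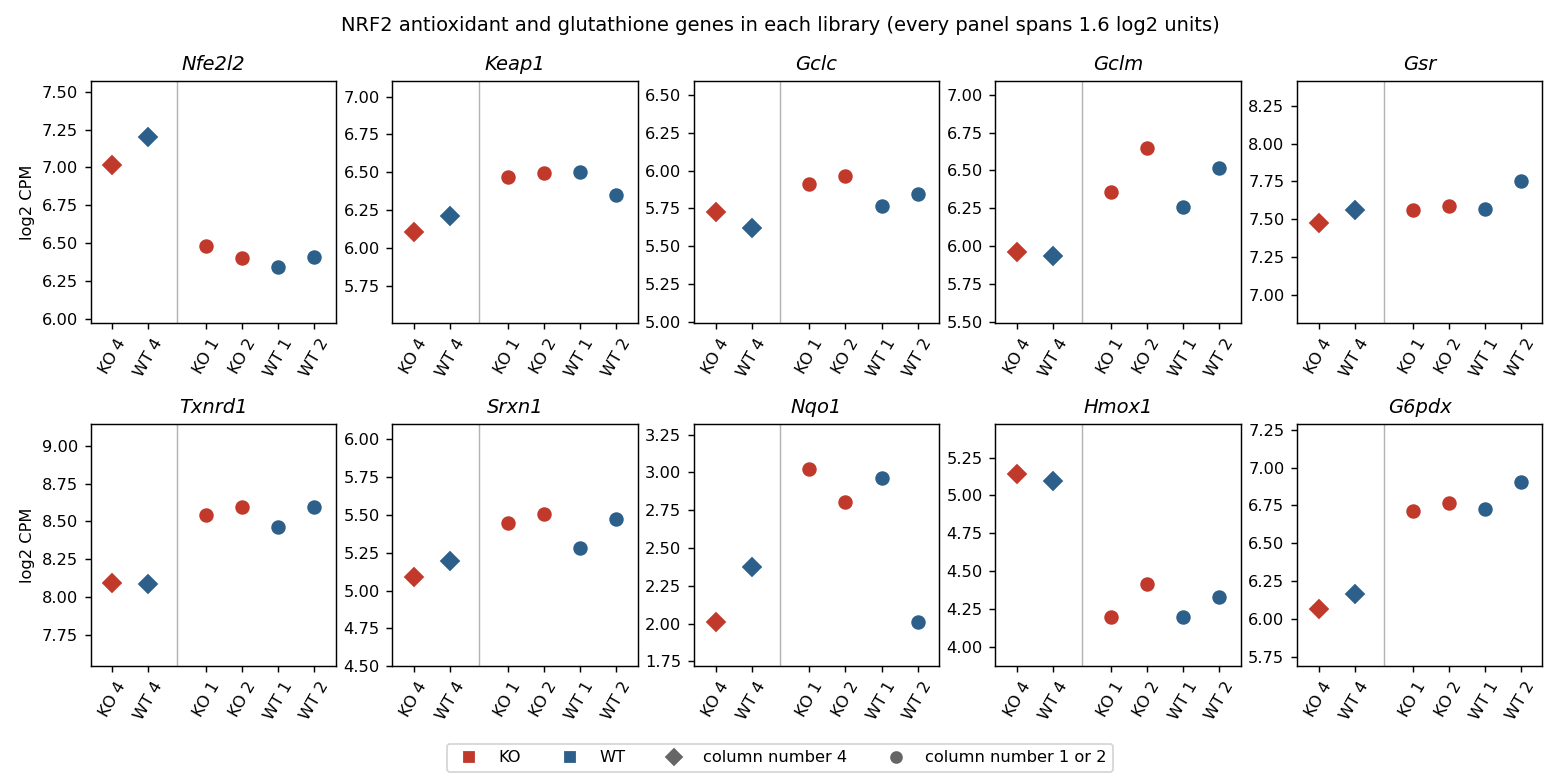
Level of each of the 10 genes in each library, in log2 CPM, with KO in red and WT in blue, and diamonds for column number 4 and circles for column numbers 1 and 2. Nfe2l2 and Hmox1 lie higher in KO 4 and WT 4 than in the other 4 libraries, Keap1, Gclc, Gclm, Txnrd1, Srxn1 and G6pdx lie lower, and Gsr and Nqo1 overlap. The share of all genes that separate in this way was not counted.

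The libraries numbered 4 were compared with those numbered 1 and 2, with genotype held constant, to describe how the pathway differs between them. Nfe2l2 and Hmox1 were higher in KO 4 and WT 4, while the inhibitor gene Keap1 and 5 genes of glutathione synthesis, thioredoxin metabolism and NADPH supply were lower. In limma's test across 11269 genes, 2 of the 10 members passed an adjusted p of 0.05 as higher, 6 passed as lower and 2 did not pass. Of all genes tested 65.6% passed, 31.8% as higher and 33.8% as lower, so a call in this comparison is common. The share of all genes whose libraries numbered 4 do not overlap the others was not counted. A lack of overlap given for a member is thus a description and not a trait particular to it. KO 4 and WT 4 share a column number, so p-values in this comparison do not measure the spread between numbers. The median difference was -0.29 over the 10 members and 0.0031 over all genes. In bulk RNA, fewer cells with a transcript and less of it per cell cannot be told apart.

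Nfe2l2 (GRCm38 chromosome 2, 75675513 to 75704641, minus strand) is the gene of NRF2 itself. In log2 CPM its level was 7.01 in KO 4 and 7.20 in WT 4, against 6.48 and 6.40 in KO 1 and KO 2 and 6.34 and 6.41 in WT 1 and WT 2. Both libraries numbered 4 lay above all others. The difference was 0.70 (SE 0.07, adjusted p = 2.3e-05), a level 62.3% higher, and 12.9% of all genes tested differed by more in that direction. Within genotypes it was 0.57 in KO and 0.82 in WT.

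Keap1 (chromosome 9, 21229730 to 21239361, minus strand), the gene of the NRF2 inhibitor, went the other way. It was at 6.11 in KO 4 and 6.21 in WT 4, against 6.47 and 6.50 in KO 1 and KO 2 and 6.50 and 6.35 in WT 1 and WT 2. The groups did not overlap, and Keap1 fell by 0.30 on the log2 scale (SE 0.07, adjusted p = 0.0034), or fell by 18.6%. Without KO 4 the difference was -0.22 and the call ended (adjusted p = 0.079). An antisense transcript, Gm16754, covers 11.3% of the exon bases of Keap1, and its reads cannot be told apart from those of Keap1 without a stated strand setting.

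The subunits of glutamate-cysteine ligase, which catalyses the first and rate-limiting step of glutathione synthesis, were both lower in the libraries numbered 4. Gclm (chromosome 3, 122245557 to 122270732, plus strand), the modifier subunit, was at 5.96 in KO 4 and 5.93 in WT 4, against 6.36 and 6.65 in KO 1 and KO 2 and 6.26 and 6.51 in WT 1 and WT 2. The groups did not overlap, although number 2 was higher than number 1 by 0.29 in KO and 0.26 in WT. Gclm fell by 0.50 (SE 0.10, adjusted p = 0.0015), or fell by 29.1%.

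Gclc (chromosome 9, 77754535 to 77794485, plus strand), the catalytic subunit, was at 5.73 in KO 4 and 5.62 in WT 4, against 5.91 and 5.97 in KO 1 and KO 2 and 5.76 and 5.84 in WT 1 and WT 2. The highest library numbered 4 was just below the lowest of the others. Gclc fell by 0.20 (SE 0.06, adjusted p = 0.016), and the call ended without KO 4 (-0.19, adjusted p = 0.12) or WT 4 (-0.21, adjusted p = 0.081). Gsr (chromosome 8, 33653238 to 33698163, plus strand) encodes glutathione reductase, which regenerates glutathione from its oxidised dimer with NADPH. It was at 7.47 in KO 4 and 7.56 in WT 4, against 7.56 and 7.58 in KO 1 and KO 2 and 7.57 and 7.75 in WT 1 and WT 2, and KO 1 and WT 4 were nearly equal. The difference of -0.10 (SE 0.06) did not pass (adjusted p = 0.18), and it passed without WT 1 (-0.14, adjusted p = 0.044).

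Both genes of the thioredoxin branch were lower. Txnrd1 (chromosome 10, 82833951 to 82897712, plus strand), the cytosolic thioredoxin reductase, was at 8.09 in both KO 4 and WT 4, against 8.54 and 8.60 in KO 1 and KO 2 and 8.46 and 8.60 in WT 1 and WT 2. KO 4 and WT 4 were alike and well below the others. Txnrd1 fell by 0.46 (SE 0.06, adjusted p = 9.4e-05), or fell by 27.2%. After quantile normalization it fell by 0.27 (adjusted p = 0.0021). Srxn1 (chromosome 2, 152105524 to 152111376, plus strand), the gene of sulfiredoxin, which repairs overoxidised peroxiredoxins, was at 5.09 in KO 4 and 5.20 in WT 4, against 5.44 and 5.51 in KO 1 and KO 2 and 5.28 and 5.48 in WT 1 and WT 2. WT 4 and WT 1 were close, and the difference was -0.39 within KO and -0.18 within WT. Srxn1 fell by 0.28 (SE 0.08, adjusted p = 0.012), and without KO 4 the call ended (-0.18, adjusted p = 0.20).

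Hmox1 (chromosome 8, 75093621 to 75100589, plus strand) encodes the inducible heme oxygenase, which breaks heme into biliverdin, iron and carbon monoxide. It is repressed by BACH1 and is induced by other stress pathways besides NRF2. It was at 5.14 in KO 4 and 5.09 in WT 4, against 4.20 and 4.41 in KO 1 and KO 2 and 4.20 and 4.33 in WT 1 and WT 2. The groups were far apart, and Hmox1 was higher by 0.83 (SE 0.09, adjusted p = 4.0e-05), a level 78.3% higher, in KO (0.84) and in WT (0.83).

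G6pdx (chromosome X, 74409483 to 74429194, minus strand) encodes glucose-6-phosphate dehydrogenase, the entry enzyme of the pentose phosphate pathway and a source of NADPH. It was at 6.07 in KO 4 and 6.16 in WT 4, against 6.72 and 6.77 in KO 1 and KO 2 and 6.73 and 6.91 in WT 1 and WT 2. It had the lowest difference of the 10 members, with no overlap, and fell by 0.67 (SE 0.06, adjusted p = 2.0e-05), or fell by 36.9%. Of all genes tested 11.7% differed by more in that direction.

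Nqo1 (chromosome 8, 107388225 to 107403206, minus strand), a quinone reductase widely used as a readout of NRF2, had the lowest level of the 10, with 74 to 157 reads per library. It was at 2.01 in KO 4 and 2.37 in WT 4, against 3.03 and 2.80 in KO 1 and KO 2 and 2.97 and 2.01 in WT 1 and WT 2. The groups overlapped through WT 2, which was as low as KO 4 and 0.95 below WT 1. The difference of -0.51 (SE 0.27) did not pass (adjusted p = 0.13). It passed without WT 2 (-0.77, adjusted p = 0.0021) and after quantile normalization (-0.80, adjusted p = 0.026).

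**Figure D2:**
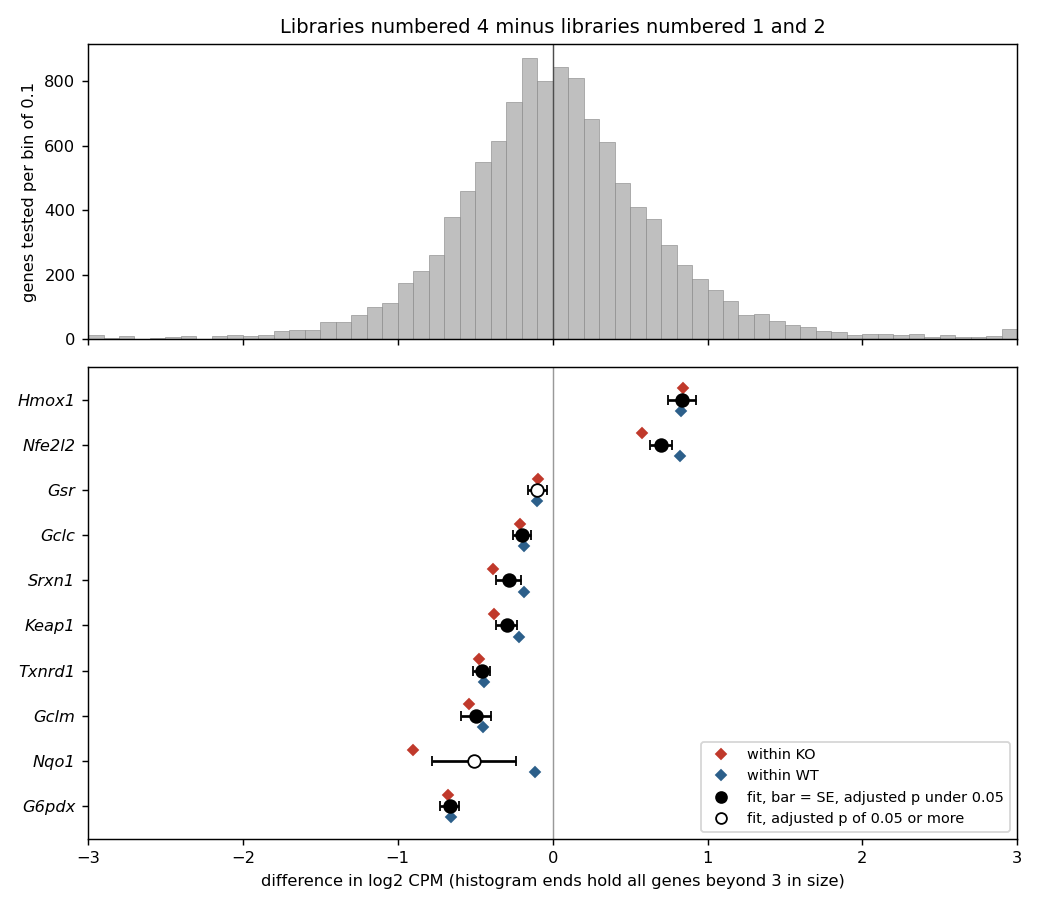
Difference in log2 CPM between libraries numbered 4 and those numbered 1 and 2, as a histogram of the 11269 genes tested (top) and for the 10 members (bottom), where circles are the fitted difference, bars its SE, and diamonds the values within KO and within WT. Hmox1 at 0.83 and Nfe2l2 at 0.70 are the only members above 0, and G6pdx at -0.67 is the lowest.

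Per kilobase of exon, in CPM per kb, the members kept a wide range of levels. In the libraries numbered 4, Gsr averaged 68.6, Txnrd1 66.9, Nfe2l2 55.8, G6pdx 26.1, Hmox1 22.1, Keap1 15.9, Gclc 14.9, Srxn1 12.6, Gclm 11.05 and Nqo1 2.97 CPM per kb. In the libraries numbered 1 and 2 the order was Txnrd1 at 92.0, Gsr 73.5, G6pdx 41.5, Nfe2l2 34.3, Keap1 19.5, Gclc 17.1, Gclm 15.7, Srxn1 15.3, Hmox1 12.4 and Nqo1 4.34 CPM per kb. Nfe2l2 thus stood above G6pdx in KO 4 and WT 4 and below it in the other libraries, with no overlap either way (52.2 to 59.4 for Nfe2l2 and 25.3 to 27.0 for G6pdx in the first, 32.8 to 36.1 and 39.6 to 45.3 in the second). Txnrd1 and Gsr overlapped in KO 4 and WT 4, as did Keap1 and Gclc. Gclc, Gclm and Srxn1 overlapped in the libraries numbered 1 and 2, as did Keap1 with Gclc, so their order there is not beyond the spread.

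The genes closest in profile to the members with the largest differences were found by the root mean square distance of centred log2 values over the 6 libraries. For Hmox1 they were Rcor3 and AU041133, each at a distance of 0.035 and 0.88 and 0.83 higher in the libraries numbered 4. For Nfe2l2 they were Rbm39 and Cblc, each at 0.034 and 0.70 and 0.72 higher. For G6pdx they were Kars, at 0.020, and Ppp1r14b, at 0.028, with differences of -0.66 and -0.64.

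Further genes of the same system were taken from lists grouped by textbook role, 113 genes in all, of which 89 were in the table and 86 were tested. In the libraries numbered 4, 28 were higher, 35 were lower and 23 did not pass. Over all genes 65.6% passed, 31.8% as higher and 33.8% as lower, and each list below is to be read against these shares. The median over the 86 was -0.02.

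Among the partners of NRF2 and its degradation machinery, 6 of 11 were higher, 3 were lower and 2 did not pass, with a median of 0.27. Sqstm1, an autophagy receptor that binds KEAP1 and is itself an NRF2 target, was at 10.55 in KO 4 and 10.72 in WT 4, against 8.30 and 8.45 in KO 1 and KO 2 and 8.42 and 8.19 in WT 1 and WT 2. It was higher by 2.30 (SE 0.08, adjusted p = 1.3e-07). Nfe2l1, a related factor that controls proteasome genes, was higher by 1.40 (SE 0.06), and Mafg, a small MAF partner, by 0.71 (SE 0.05). Rbx1, the RING subunit of the CUL3 ligase, fell by 0.76 (SE 0.07), whereas Cul3 differed by 0.08 (SE 0.05, adjusted p = 0.22). Cul3 passed after quantile normalization (0.26, adjusted p = 0.0012).

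In the list of cystine uptake and glutathione turnover, 4 of 7 tested genes were higher, 2 were lower and 1 did not pass, with a median of 0.31. Slc7a11, the cystine transporter of the xCT system, is known as a target of both NRF2 and ATF4. It was at 7.38 in KO 4 and 7.08 in WT 4, against 2.96 and 2.92 in KO 1 and KO 2 and 2.44 and 4.52 in WT 1 and WT 2. It was higher by 4.02 (SE 0.45, adjusted p = 5.3e-05), and WT 2 lay 2.08 above WT 1. Slc3a2, the heavy chain that pairs with it, was higher by 1.56 (SE 0.11). Ggct, an enzyme of glutathione breakdown, fell by 1.18 (SE 0.11), and Abcc1, a pump that exports glutathione conjugates, fell by 0.47 (SE 0.05). Gss, which completes glutathione synthesis, differed by 0.05 (SE 0.09).

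Thioredoxins and peroxiredoxins were lower in 9 of 12 tested genes, higher in 2 and not past the threshold in 1. Their median was -0.45, and over all genes 33.8% were lower and 31.8% higher. Prdx1, an abundant cytosolic peroxidase and NRF2 target, was at 7.82 in KO 4 and 8.08 in WT 4, against 9.17 and 9.20 in KO 1 and KO 2 and 9.23 and 9.22 in WT 1 and WT 2. It fell by 1.25 (SE 0.06, adjusted p = 5.2e-07). Txn1, the cytosolic thioredoxin that TXNRD1 reduces, fell by 1.14 (SE 0.08), and Prdx6 fell by 0.70 (SE 0.05). Txnip, the inhibitor of thioredoxin, was higher by 2.88 (SE 0.21).

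Of 12 tested NADPH-producing enzymes 6 were lower, 2 were higher and 4 did not pass, with a median of -0.10. Pgd, the next oxidative enzyme of the pentose phosphate pathway after G6pdx, was at 6.32 in KO 4 and 6.33 in WT 4, against 7.82 and 7.79 in KO 1 and KO 2 and 7.82 and 7.79 in WT 1 and WT 2. It fell by 1.48 (SE 0.05, adjusted p = 7.7e-08). Idh1, cytosolic isocitrate dehydrogenase, fell by 1.03 (SE 0.06), and the malic enzymes Me1 and Me2 fell by 0.63 and 0.83 (SE 0.08 and 0.07).

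Among glutathione peroxidases, transferases and glutaredoxins 7 of 18 were higher, 5 were lower and 6 did not pass, with a median of 0.09. Over all genes 31.8% were higher and 33.8% lower. Gpx4, which reduces lipid peroxides, was higher by 0.38 (SE 0.06), and Gstt3, a glutathione transferase, by 1.19 (SE 0.18). Gpx8, a peroxidase of the endoplasmic reticulum, fell by 0.92 (SE 0.07), and the mitochondrial glutaredoxin Glrx5 fell by 0.78 (SE 0.05).

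Of the detoxification enzymes and pumps 6 of 14 were higher, 4 were lower and 4 did not pass, with a median of 0.16. The shares over all genes were 31.8% higher and 33.8% lower. The conjugate exporter Abcc3 was higher by 2.33 (SE 0.14) and Osgin1, a growth inhibitor induced by oxidised lipids, by 0.70 (SE 0.10), while Akr1b3, an aldose reductase, fell by 0.63 (SE 0.06) and Ugdh, which makes UDP-glucuronate, fell by 0.54 (SE 0.05).

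Of 9 heme and ferritin genes 1 was higher, 4 were lower and 4 did not pass, with a median of -0.09. The iron exporter gene Slc40a1 was higher by 1.98 (SE 0.19), while Blvra, which encodes biliverdin reductase, fell by 0.51 (SE 0.08). Hmox2, the constitutive heme oxygenase, fell by 0.23 (SE 0.07), a call that ended without KO 2 (-0.19, adjusted p = 0.052) or KO 4 (-0.11, adjusted p = 0.31). The ferritin heavy chain gene Fth1 fell by 0.58 (SE 0.14), with -0.93 within KO and -0.24 within WT, and its call ended without KO 4 (-0.24, adjusted p = 0.10) or after quantile normalization (-0.18, adjusted p = 0.23). Without WT 4 Fth1 fell by 0.93 (adjusted p = 2.8e-04). Of the 3 superoxide dismutase and catalase genes, Sod2 and Sod1 fell by 0.73 and 0.34 (SE 0.06 and 0.07) and Cat differed by -0.12 (SE 0.08, adjusted p = 0.17). After quantile normalization Sod1 fell by 0.21 (adjusted p = 0.021). The Cat difference was 0.04 within KO and -0.28 within WT, and it passed without KO 4 (-0.28, adjusted p = 0.020). Reads of ferritin, thioredoxin and peroxiredoxin genes may be shared with near-identical copies.

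**Figure D3:**
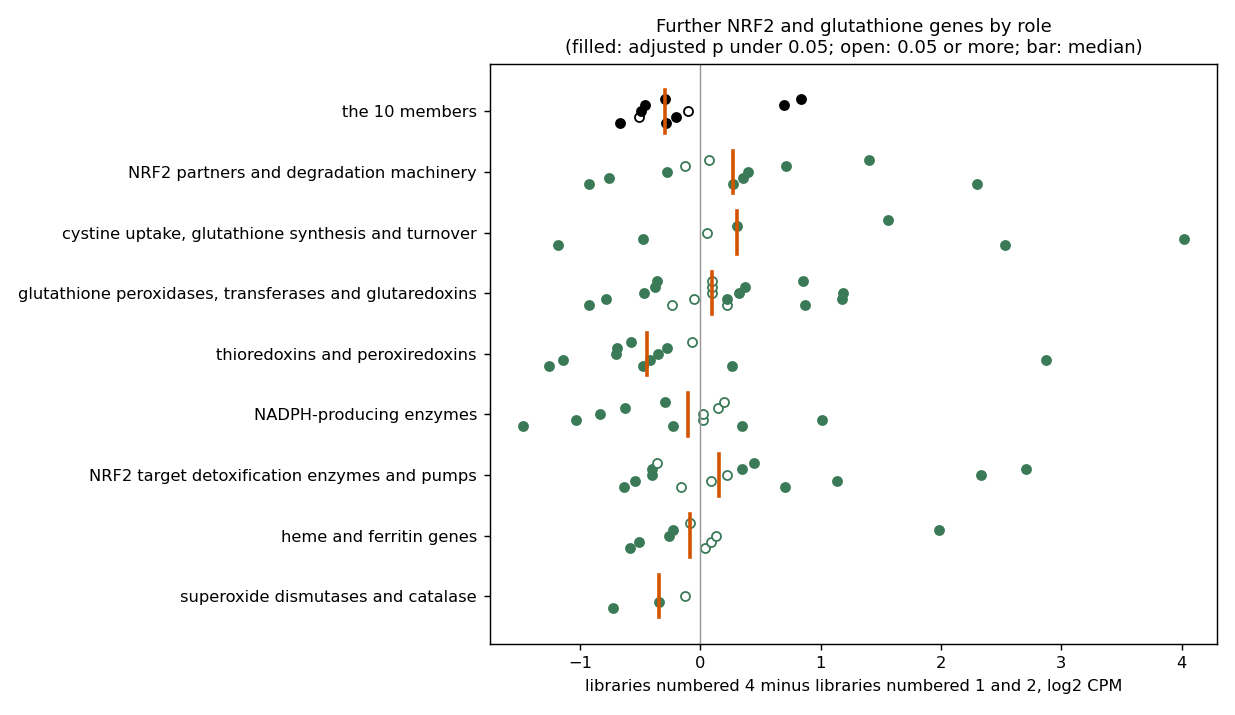
Difference in log2 CPM between libraries numbered 4 and those numbered 1 and 2 for each tested gene of the 10 members and of 8 lists of related genes, filled where the adjusted p was under 0.05, with the list median as a bar. Thioredoxin and peroxiredoxin genes have a median of -0.45, and the largest value, 4.02, is Slc7a11.

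Whether the number 4 difference was itself unequal between KO and WT was tested as an interaction. With limma 0 of the 10 members passed, as did 0% of all genes, with 440 of 11269 genes at an unadjusted p under 0.05, and limma voom on the recovered reads also called 0. The interaction was -0.25 for Nfe2l2 (SE 0.12, adjusted p = 0.9969), the member with the smallest unadjusted p, at 0.063. The count of called genes did not stay at 0 without WT 1 or without WT 2. Each of those fits leaves a single WT library as the base of the WT difference, so no p-value is given for them. Without WT 1, Nqo1 had an interaction of -1.26, which rests on the low WT 2.

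The comparison of KO with WT asked whether the pathway differed with Myo1e. No member passed the threshold. With limma 0 of 10 members passed, as did 0% of all genes, and 0 members had an unadjusted p under 0.05, against 23 of 11269 genes. limma voom on the recovered reads also called 0 genes. Neither fit had a term for the column number, the largest source of variance, so differences between numbers stayed in the error. The median SE over all genes was 0.197 in the limma fit, against 0.073 with the column number as a replicate block. A count of 0 without the block therefore says little about Myo1e. With the column number as a replicate block, 0 members passed, against 0.00887% of all genes, which is the single gene Txnip, and 1 of 10 members had an unadjusted p under 0.05, against 1117 of 11269 genes (9.91%). The differences ranged from -0.09 to 0.16 log2 units, 7 above 0 and 3 below 0, with a median of 0.03.

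For Nfe2l2 the KO mean was 6.63 ± 0.33 and the WT mean 6.65 ± 0.48, in log2 CPM with the SD over 3 libraries each, as in all means that follow, and the difference was -0.02 (SE 0.07 with the block). Its differences were 0.14, -0.01 and -0.19 in numbers 1, 2 and 4, so the pairs did not share a direction. Keap1 averaged 6.36 ± 0.22 in KO and 6.35 ± 0.15 in WT, with differences of -0.03, 0.15 and -0.10. Neither the factor nor its inhibitor differed in 1 direction across the numbers.

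Gclc was the member with the smallest p in the blocked fit. It averaged 5.87 ± 0.12 in KO and 5.74 ± 0.11 in WT, with KO higher by 0.15, 0.12 and 0.11 in numbers 1, 2 and 4. Its mean was higher by 0.13 (SE 0.12, adjusted p = 0.9999 without the block; SE 0.06, unadjusted p = 0.047 and adjusted p = 0.49 with it). Gclm averaged 6.32 ± 0.34 in KO and 6.24 ± 0.29 in WT, with differences of 0.10, 0.13 and 0.03 (adjusted p = 0.62 with the block). Gsr averaged 7.54 ± 0.06 in KO and 7.63 ± 0.11 in WT, with differences of -0.01, -0.17 and -0.08 (adjusted p = 0.60 with the block).

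Txnrd1 averaged 8.41 ± 0.28 in KO and 8.38 ± 0.26 in WT, and its differences were 0.08, 0.0017 and 0.0063. Srxn1 averaged 5.35 ± 0.23 in KO and 5.32 ± 0.14 in WT, with differences of 0.16, 0.03 and -0.10. Neither gene of this branch passed the threshold.

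Hmox1 averaged 4.59 ± 0.50 in KO and 4.54 ± 0.48 in WT, with differences of -0.0022, 0.09 and 0.05. G6pdx averaged 6.52 ± 0.39 in KO and 6.60 ± 0.39 in WT, lower in KO in 3 of 3 numbers by -0.01, -0.14 and -0.10 (adjusted p = 0.63 with the block). Nqo1 averaged 2.61 ± 0.53 in KO and 2.45 ± 0.48 in WT and was the most uneven, with differences of 0.06, 0.79 and -0.36. The value of 0.79 rests on the low WT 2.

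The sign of the KO minus WT difference was the same in all 3 numbers for 5 members. Gclc, Gclm and Txnrd1 were higher in KO 3 of 3 times, where 15.6% of all genes tested were, and Gsr and G6pdx were lower 3 of 3 times, where 17% of all genes were. For Txnrd1 the sign rests on differences under 0.01 in numbers 2 and 4. For Gsr and G6pdx it rests on small differences in number 1, of -0.0094 and -0.010.

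**Figure D4:**
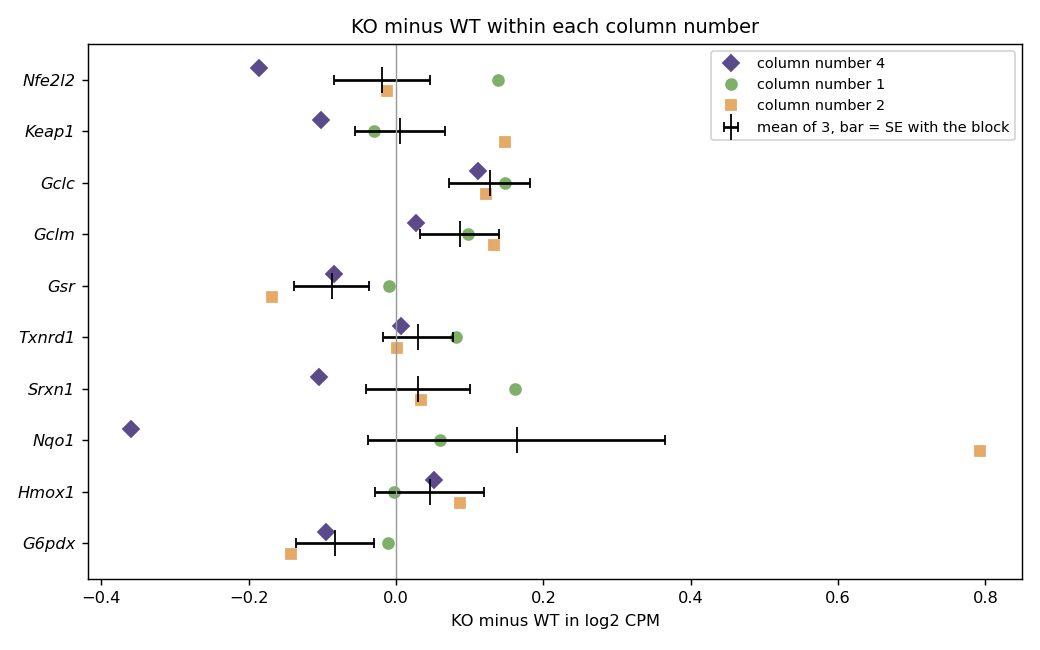
KO minus WT difference in log2 CPM of each member within column numbers 4, 1 and 2, with the mean as a black tick and its SE from the blocked fit as a bar. Most points lie within 0.2 of 0, and Nqo1 spreads from -0.36 to 0.79.

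Among the 86 further genes tested, 0 passed for KO against WT and 1, Txnip, passed with the replicate block, with 30 differences above 0 and 56 below 0 and a median of -0.05. The thioredoxin and peroxiredoxin genes were below 0 in 10 of 12, with a median of -0.11. In the blocked fit 5 of the 12 had an unadjusted p under 0.05, among them Txnrd2, which was higher in KO by 0.19. The other lists held 0 to 4 such genes, with 4 of 18 among glutathione peroxidases, transferases and glutaredoxins. Below 0 were 12 of 18 in that list, 10 of 14 detoxification genes and 5 of 11 NRF2 partners. Over all genes tested 52.9% were below 0 and 9.91% had such a p. Txnip was at 4.73, 3.86 and 7.14 in KO 1, KO 2 and KO 4, against 5.46, 5.003 and 8.14 in WT 1, WT 2 and WT 4, a difference of -0.96 (adjusted p = 0.9999, and 0.0043 with the block). Abcc1 was higher in KO in 3 of 3 numbers, at 7.52, 7.51 and 7.05 in KO 1, KO 2 and KO 4, against 7.30, 7.31 and 6.82 in WT 1, WT 2 and WT 4. Its difference of 0.22 did not pass with the block (SE 0.05, adjusted p = 0.23). The small MAF gene Mafk differed by 0.19 (SE 0.22 without the block, 0.07 with it) and was higher in KO in 3 of 3 numbers. The glutaredoxin gene Glrx differed by -0.31 (SE 0.17 without the block, 0.12 with it) and was lower in 3 of 3. Neither passed with the block (adjusted p = 0.40 and 0.44).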

How the data were processed

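RNA-seq was done on 6 libraries, 3 per genotype. The authors deposited log2 CPM values for 11452 genes, and the submitters' processing notes name GRCm38, edgeR, Subread 1.6.4 with featureCounts, STAR 2.7.3a and Trimmomatic 0.39. No source used here gives the strand setting, annotation or scaling. One read was worth 0.0480 CPM in KO 4, with 19560010 reads, and 0.0515 CPM in KO 1, with 19988206 reads. The values were thus not scaled by these read totals alone, and the number 4 contrast was not tested on such a scaling. Columns numbered 1 and 2 were assigned by the pool number in the titles, and columns numbered 4 by genotype alone. Whether the libraries came from separate cultures is stated only as biological replicates, so p-values measure the spread between these libraries.

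limma 3.58.1 in R 4.3.3, with a variance trend, was fitted to 11269 genes that reached 0 log2 CPM in 3 or more libraries, leaving out 183. Tests were two-sided at a Benjamini-Hochberg adjusted p of 0.05. The number 4 contrast (2 against 4 libraries) had genotype as covariate. It had no further term for the column number, so KO 4 and WT 4 counted as independent libraries though they share a number. Its p-values do not measure the spread between numbers. With 3 libraries a genotype, the smallest p of an exact permutation test is 0.1. Reads were recovered by dividing the linear values, less the value at 0 reads, by the worth of 1 read, and 100% were whole within 0.01. With 3 reads as the limit that a count of 0 allows, the floor was 0.144 to 0.173 CPM by library, for counting error only. Deviations of same-numbered KO and WT libraries from their genotype means correlated at 0.744, 0.784 and 0.921 across genes, so the numbers were taken to pair the libraries, from these values and not from a label. KO 1 with WT 2 and KO 2 with WT 1 correlated at 0.687 and 0.617, nearly as high. The genotype means include the libraries numbered 4, so the number 4 difference raises all correlations among libraries numbered 1 and 2. These values therefore do not settle the pairing of 1 with 1 and of 2 with 2, which is less certain than that of 4 with 4. Fits were tested on simulated data in which only planted changes differed between libraries. That test therefore does not cover the KO minus WT fit under the number 4 difference seen here. Members, lists and tests were chosen with earlier results of these data known. The text names all 10 members, per list up to 4 genes with the smallest p in the number 4 contrast and up to 2 for KO minus WT, and the 2 nearest profiles of 3 members. Exon lengths are from GENCODE M21 and start-site windows from RefSeq.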

Additional observations from a re-analysis of the deposited data

How the results depend on the processing

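Alternatives were no filter, a minimum log2 CPM of 1, pseudocounts of 1 and 0.25, median centring, quantile normalization, no variance trend, robust empirical Bayes, limma voom on the recovered reads with a trimmed mean of M values scaling, and leaving out each library. The number 4 contrast was also fitted with the genotype term left out. For KO against WT, the count of called genes was 0 in each except the replicate block, with 1, and the block changed no call of a member. Apart from the block, those fits had no term for the column number, so the number 4 difference stayed in their error. Without KO 4 or WT 4 the genotypes were also uneven in number 4. A count of 0 in those fits therefore says little about Myo1e. A term for the libraries numbered 4, and libraries 1 and 2 only, also called 0. For the number 4 contrast the count was 7398, and 5589 to 7452 with 1 library left out. Of the further genes 63 were called, and 48 to 62 with 1 library left out. Nfe2l2, Hmox1, Gclm, Txnrd1 and G6pdx kept their call in 16 of 16 alternatives. Keap1, Gclc, Srxn1, Gsr and Nqo1 did not keep their side of the threshold in each, as given above, and no call changed sign. The interaction count ranged from 0 to 264 with 1 library left out; its alternatives beyond no filter and voom were chosen after seeing the data, and it could not be fitted without KO 4 or WT 4. The cause was not tested. Nqo1 had 74 reads in its lowest library, the fewest of the members.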
